A study of Mus musculus with 6 samples.

Results

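Costimulatory and signal-tuning receptors are the surface proteins that set how strongly a T cell responds when its antigen receptor is engaged. The mRNA levels of 8 of them, Cd28, Icos, Cd2, Cd5, Cd6, Cd226, Cd96 and Ptprc, were examined in cDNT that did or did not receive IL-10. The genes were set by name out of the 29393 genes of the count table. The rule uses no measured value, but the genes were chosen with earlier results of these data known. All 8 were among the 14916 genes that entered the test, for which 3 or more libraries had to hold 10 or more counts.

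cDNT are double-negative mouse T cells, named for lacking CD4 and CD8. Their source was CD4+CD25- T cells of CD45.1-positive C57BL/6 mice, which were grown beside mature C57BL/6 dendritic cells in IL-2 before cDNT were sorted. The labels name adult C57BL/6 mice and spleen for all samples. The W/ IL-10 group received IL-10 at 50 ng/ml for 24 h, the W/O IL-10 group received none, and each group had 3 libraries. According to the study's methods the cells were also stimulated with anti-CD3/CD28 antibodies, which the labels do not mention, and the protein product of Cd28 is the target of one of them. The methods name these antibodies together with IL-10 and do not spell out what the W/O IL-10 cells received, so that IL-10 and the antibodies cannot be told apart here if only the W/ IL-10 cells were stimulated. Neither source states whether the 3 libraries of a group came from separate cultures or animals, and p-values therefore measure only the spread between these libraries.

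CD28 and ICOS belong to the same receptor family and add a second signal to that of the T cell receptor, mainly through phosphoinositide 3-kinase. CD28 shares its ligands CD80 and CD86 with the inhibitory receptor CTLA-4. CD2 binds CD48 on mouse cells and strengthens adhesion and signaling. CD5 and CD6 are scavenger receptor cysteine-rich proteins that are held near the T cell receptor and tune its signal, CD5 mostly as a brake. CD226 and CD96 bind nectin-type ligands such as CD155, encoded by Pvr, which the inhibitory receptor TIGIT binds as well. Ptprc encodes CD45, the membrane phosphatase that keeps the kinase LCK in a state ready to signal.

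The counts on genes summed to between 21619420 and 23967088 per library, and 3 counts, the smallest number taken as detected, corresponded to 0.125 to 0.139 CPM, the count of a gene relative to the normalized total of its library. T cell genes were abundant, with a summed level of 3090 to 3570 CPM W/O IL-10, against 3920 to 3990 CPM W/ IL-10 over 9 markers. Cd4 had 8 to 38 counts per library, whereas Cd8a had 2316 to 3786 and Cd8b1 787 to 1521, so that CD8 mRNA was present in every library of cells named as lacking CD8. The summed coreceptors were higher W/ IL-10 without overlap, at 198 to 233 CPM against 130 to 165 CPM, with Cd8b1 called (log2 fold change 0.67, adjusted p = 0.0306) and Cd8a under the fold threshold (0.56, adjusted p = 0.0369, edgeR). The 5 B cell markers summed to 62.2 to 153 CPM W/O IL-10, against 59.3 to 105 CPM W/ IL-10, and 8 macrophage markers to 26.7 to 34.6 and 31.1 to 34.4 CPM. The 9 dendritic cell markers summed to 167 to 189 and 130 to 149 CPM. Ccr7 was the largest single part, at 83.5 to 110 CPM W/O IL-10 and 59.55 to 72.0 CPM W/ IL-10. It was called lower (log2 fold change -0.63, adjusted p = 0.0364), while Itgax was called higher (1.09, adjusted p = 0.00383, edgeR). Which cells made the transcripts of these markers was not tested. Of these 9, Clec9a and Flt3 were at or near 0. The 5 NK cell genes, some of which cytotoxic T cells also express, summed to 2260 to 2720 and 3670 to 5040 CPM, most of it Gzma, which was called higher (log2 fold change 1.06, adjusted p = 0.0116), whereas Ncr1 was called lower (-1.15, adjusted p = 0.0460) and the median of the 5 was -0.26. Itgax kept its call without any single library. Ccr7 and Ncr1 kept theirs only without W/O IL-10 replicate 1 (adjusted p otherwise up to 0.195 and 0.220), Cd8b1 lost its call without W/O IL-10 replicate 2 or any W/ IL-10 library (up to 0.178), and Gzma without W/O IL-10 replicate 2 or W/ IL-10 replicates 1 or 2 (up to 0.0537, edgeR). W/O IL-10 replicate 1 and, less so, W/ IL-10 replicate 1 stood apart by the GC content of their genes, as given for the receptors with the GC values.

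After IL-10, Cd5 was lower, and none of the 8 receptor genes reached a fold change of 1.5. Cd5 mRNA was 0.720-fold of its level W/O IL-10 (95% interval 0.618 to 0.839, n = 3 libraries per group). The fold changes of the other 7 lay between 0.887 for Cd6 and 1.29 for Cd28, and none of the 7 passed the test. The log2 fold change was above 0 for 5 of the 8 and below 0 for 3, with a median of 0.12 against 0.01 over all tested genes. In these bulk samples, fewer cells of a type and less RNA per cell cannot be told apart.

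All 14916 genes were fitted together by the quasi-likelihood method of edgeR, with Benjamini-Hochberg adjustment. Of the 8 receptor genes 0 were called at a fold change of at least 1.5 and an adjusted p under 0.05, against 1.45% of all tested genes. DESeq2 and limma-voom also called 0. At any fold change 1 of the 8 had an adjusted p under 0.05, and it was lower, against 2.19% of all tested genes (1.21% higher and 0.979% lower), and 2 had an unadjusted p under 0.05, against 14.7%. For 3 of the 8, Cd5, Cd2 and Cd96, no value of one group lay within the other, against 22.6% of all tested genes (11.3% higher and 11.2% lower). The summed T cell, coreceptor and NK cell markers were higher W/ IL-10 without overlap and the dendritic cell sum lower. Single markers within each of these lists went both ways. In log2 fold change, 8 T cell markers were above 0 and 1 below, and 2 coreceptors above and 1 below. The part of these cells in the differences of Cd2, Cd96 and Cd5 was not tested.

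**Figure D1:**
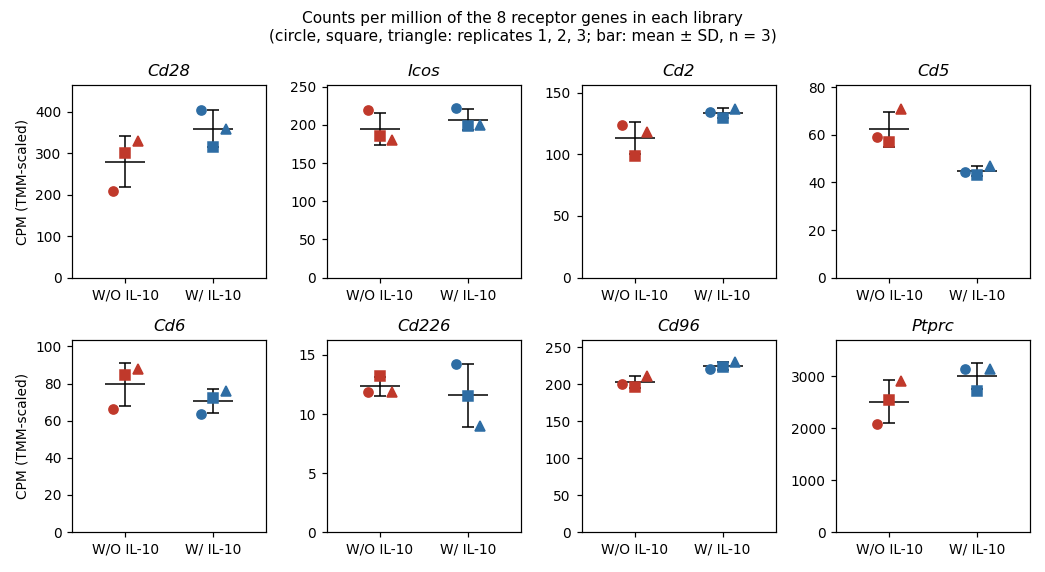
CPM (vertical axes, each from 0) of the 8 receptor genes in the 3 W/O IL-10 libraries (red) and the 3 W/ IL-10 libraries (blue), with mean ± SD. All W/ IL-10 libraries lie below all W/O IL-10 libraries for Cd5 and above them for Cd2 and Cd96, and the lowest W/O IL-10 value of Cd28 and Ptprc is replicate 1.

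Cd5 (ENSMUSG00000024669, chromosome 19 of GRCm38, 10717116 to 10739002) had 59.3, 56.9 and 70.8 CPM in W/O IL-10 replicates 1, 2 and 3. It had 44.3, 43.2 and 47.1 CPM in W/ IL-10 replicates 1, 2 and 3. The lowest W/O IL-10 library was thus above the highest W/ IL-10 library, and the means were 62.3 ± 7.45 and 44.9 ± 2.01 CPM (SD, n = 3). The log2 fold change of -0.47 had a standard error of 0.10 and passed narrowly, with an adjusted p = 0.0467 in edgeR. The direction was the same in every alternative run, with log2 fold changes between -0.54 and -0.36. The adjusted p was 0.0132 without W/O IL-10 replicate 1, but 0.0935 and 0.105 without W/O IL-10 replicates 2 and 3, and 0.169, 0.149 and 0.181 without W/ IL-10 replicates 1, 2 and 3 (edgeR). It was 0.0913 once GC content and gene length were corrected for and 0.0539 with limma-voom, and over all alternatives ran from 0.000291 without a filter on low counts to 1 against a null fold change of 1.5.

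B cells can also make CD5, and the summed B cell markers were 62.2, 153 and 104 CPM in W/O IL-10 replicates 1, 2 and 3, against 61.5, 105 and 59.3 CPM in W/ IL-10 replicates 1, 2 and 3. These marker levels overlapped between the groups, and all 5 B cell markers had a log2 fold change below 0, with a median of -0.50. Cd5 in the same order of libraries was at 59.3, 56.9 and 70.8 CPM W/O IL-10, against 44.3, 43.2 and 47.1 CPM W/ IL-10. The part of B cells in the Cd5 difference was not tested.

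RefSeq's promoter table for GRCm38.p6 held windows for 3 of the 8 genes, Cd5, Cd96 and Ptprc. Each window runs from 250 bases before a transcription start to 50 bases after it. The windows of Cd5, the gene that fell, and of Cd96, a receptor gene whose change did not pass, are shown here in the direction of transcription. Matches to 3 short motifs are in capitals. The motifs, searched on both strands, were TTCNNNGAA, a spacing that STAT factors can bind, AGGAAG, which holds the core bound by ETS factors, and TATAAA.
Cd5, minus strand, chr19:10738925-10739224: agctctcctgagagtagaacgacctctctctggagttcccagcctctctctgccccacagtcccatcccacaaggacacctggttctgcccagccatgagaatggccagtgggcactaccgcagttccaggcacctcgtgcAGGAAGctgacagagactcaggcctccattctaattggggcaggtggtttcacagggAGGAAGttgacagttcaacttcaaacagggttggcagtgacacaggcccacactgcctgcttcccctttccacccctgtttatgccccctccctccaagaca
Cd96, minus strand, chr16:46120199-46120498: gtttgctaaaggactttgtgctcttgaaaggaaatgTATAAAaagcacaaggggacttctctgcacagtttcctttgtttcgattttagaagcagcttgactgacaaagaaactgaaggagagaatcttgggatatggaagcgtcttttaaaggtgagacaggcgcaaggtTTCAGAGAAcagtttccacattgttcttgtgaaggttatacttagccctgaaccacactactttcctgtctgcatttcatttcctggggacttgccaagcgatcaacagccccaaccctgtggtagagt
The Cd5 window held 2 matches to AGGAAG, which 35.4% of the 32851 promoter windows hold on either strand, and 0 matches to the other motifs. The Cd96 window held 1 match to TTCNNNGAA, found in 8.3% of windows, and 1 to TATAAA, found in 13.6%. The matches in these windows do not overlap each other. The Ptprc windows, which overlap and are not shown, held 3 and 1 matches to AGGAAG, 1 and 0 to TATAAA and 0 to TTCNNNGAA. The change of Ptprc did not pass either. A match describes these letters only and is not a measured binding site.

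Cd6 (ENSMUSG00000024670, chromosome 19, 10789341 to 10830058) lies 50.3 kb from Cd5 with 0 protein-coding genes between them. It had 66.4, 84.5 and 87.7 CPM in W/O IL-10 replicates 1, 2 and 3, against 63.4, 72.3 and 75.9 CPM in W/ IL-10 replicates 1, 2 and 3. The groups overlapped through W/O IL-10 replicate 1, which was below the other W/O IL-10 libraries. Its log2 fold change was -0.17 (95% interval -0.44 to 0.09, adjusted p = 0.544, edgeR), and -0.30 without W/O IL-10 replicate 1 (adjusted p = 0.106, edgeR). The count of Cd5 divided by that of Cd6 was 0.791 ± 0.111 without IL-10 and 0.639 ± 0.0530 with it (SD, n = 3). The 2 groups overlapped in this ratio, with p = 0.2 in a two-sided exact permutation test, so that a different change of the 2 genes was not shown.

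Cd28 (ENSMUSG00000026012, chromosome 1 of GRCm38, 60716800 to 60773359) had 209.8, 299.9 and 329 CPM in W/O IL-10 replicates 1, 2 and 3. In W/ IL-10 replicates 1, 2 and 3 it had 404.5, 316 and 358.5 CPM. The groups overlapped, since W/O IL-10 replicate 3 was above W/ IL-10 replicate 2, and W/O IL-10 replicate 1 was the lowest library. The log2 fold change of 0.36 was the highest of the 8 genes but did not pass (standard error 0.16, 95% interval -0.0034 to 0.73, adjusted p = 0.345, edgeR). Without W/O IL-10 replicate 1 it was 0.18 (adjusted p = 0.453). Without a filter on low counts the adjusted p was 0.0187 at a log2 fold change of 0.35 (edgeR).

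Icos (ENSMUSG00000026009, chromosome 1, 60977927 to 61000320) had 219, 185.5 and 180.2 CPM in W/O IL-10 replicates 1, 2 and 3, against 222, 198 and 200.3 CPM in W/ IL-10 replicates 1, 2 and 3. Replicate 1 was the highest library of each group, and the groups overlapped. Its log2 fold change was 0.09 with a 95% interval from -0.13 to 0.30 (adjusted p = 0.721, edgeR), which does not reach a 1.5-fold change in either direction. The direction turned under the GC and length correction, to -0.03 (adjusted p = 0.944, edgeR).

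Ctla4, which encodes the inhibitory receptor for the ligands of CD28, lies between these genes, 113.6 kb from Cd28 and 62.1 kb from Icos, with 0 protein-coding genes in either gap. It rose from 55.9, 76.1 and 93.4 CPM in W/O IL-10 replicates 1, 2 and 3 to 172.5, 179 and 182 CPM in W/ IL-10 replicates 1, 2 and 3. Its log2 fold change was 1.25, with an adjusted p = 0.00831 in edgeR. The adjusted p was 0.0524 without W/ IL-10 replicate 1 and 0.0704 without W/ IL-10 replicate 3. For each count of Cd28 there were 0.268 ± 0.0154 counts of Ctla4 without IL-10 and 0.501 ± 0.0712 with it (SD, n = 3). All 3 W/ IL-10 libraries, at 0.426 to 0.568, were above all W/O IL-10 libraries, at 0.254 to 0.284. The mean log2 ratio was 0.89 higher W/ IL-10, or 1.86-fold, with p = 0.1 in the two-sided exact permutation test, the smallest that 3 libraries against 3 can give. The ratio of Icos to Cd28 was 1.04 in W/O IL-10 replicate 1 and between 0.549 and 0.627 in the other 5 libraries (p = 0.7, same exact test).

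Cd2 (ENSMUSG00000027863, chromosome 3, 101275899 to 101287939) had 123, 98.4 and 118 CPM in W/O IL-10 replicates 1, 2 and 3. It had 134, 129 and 137 CPM in W/ IL-10 replicates 1, 2 and 3. The groups did not overlap, W/ IL-10 being higher and the more uniform, with means of 113 ± 13.2 and 133.5 ± 3.81 CPM (SD, n = 3). The log2 fold change was 0.24 (95% interval 0.03 to 0.45, unadjusted p = 0.0318), and it did not pass after adjustment (adjusted p = 0.277, edgeR). Of the 15 alternatives it passed in 1, the GC and length correction together with a replicate block (log2 fold change 0.28, adjusted p = 0.0374, edgeR). Cd48, the gene of the ligand of CD2, had 123 to 132 CPM W/O IL-10, against 146 to 156 CPM W/ IL-10, also without overlap, but did not pass (log2 fold change 0.25, adjusted p = 0.121, edgeR). The ratio of Cd2 to Cd48 counts was 0.894 ± 0.0823 in the former group and 0.887 ± 0.0283 in the latter (SD, n = 3). Its means were thus closer than its replicates (p = 1, exact permutation test).

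Cd226 had the lowest level of the 8 genes, with 11.9, 13.3 and 11.9 CPM in W/O IL-10 replicates 1, 2 and 3. In W/ IL-10 replicates 1, 2 and 3 it had 14.3, 11.5 and 8.97 CPM, so that the highest and the lowest library were both W/ IL-10. Counting error alone was 6.04% of its mean count, and the spread between libraries was 6.50% of the mean without IL-10 and 22.9% with it. The fold change of Cd226 was 0.937 (adjusted p = 0.843, edgeR). The 95% interval of its log2 fold change ran from -0.48 to 0.29, so that changes of up to 0.718-fold or 1.22-fold were within the error. From its sequencing the study lists Cd226 with the cytotoxicity genes lowered by IL-10, and it followed related genes by real-time PCR and flow cytometry. A fall of Cd226 was not shown by this fit. With GC content and gene length corrected for, the interval reached further down (log2 fold change -0.61, 95% interval -1.23 to 0.02). It did not pass there either (adjusted p = 0.338, edgeR).

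Cd96 (ENSMUSG00000022657, chromosome 16, 46035657 to 46120251) had 199.5, 196 and 211 CPM in W/O IL-10 replicates 1, 2 and 3, against 220.1, 223 and 230.1 CPM in W/ IL-10 replicates 1, 2 and 3. The groups did not overlap, and replicates were closer to each other than for any other of the 8 genes, with a spread of 3.99% and 2.31% of the mean. The difference was small, at 1.11-fold (log2 fold change 0.15, 95% interval -0.01 to 0.31, adjusted p = 0.372, edgeR). Tigit, the inhibitory receptor of the same ligands, had 133 to 149.8 CPM W/O IL-10, against 141 to 149 CPM W/ IL-10, which overlapped (log2 fold change 0.03, adjusted p = 0.871, edgeR). There were 11.5 ± 0.998 counts of Tigit for each of Cd226 without IL-10 and 12.9 ± 2.90 with it (p = 0.7), 0.700 ± 0.0287 and 0.646 ± 0.0255 for each of Cd96 (p = 0.2), and 0.0611 ± 0.00593 and 0.0518 ± 0.0129 counts of Cd226 for each of Cd96 (p = 0.3, SD, n = 3, two-sided exact permutation tests). The groups overlapped in all 3 ratios.

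Ptprc (ENSMUSG00000026395, chromosome 1, 138062861 to 138175708) was the most abundant of the 8 genes, with 2081, 2543 and 2908 CPM in W/O IL-10 replicates 1, 2 and 3. In W/ IL-10 replicates 1, 2 and 3 it had 3153, 2719 and 3139 CPM. W/O IL-10 replicate 1 was the lowest library, and W/O IL-10 replicate 3 was above W/ IL-10 replicate 2. The log2 fold change was 0.26 (95% interval -0.04 to 0.55, adjusted p = 0.407, edgeR), and 0.13 without W/O IL-10 replicate 1 (adjusted p = 0.602). Ptprcap, whose product associates with CD45, had 277.5 to 301 CPM W/O IL-10, against 296 to 344 CPM W/ IL-10 (log2 fold change 0.15, adjusted p = 0.460, edgeR), and its ratio to Ptprc overlapped between the groups (p = 0.6, exact permutation test). The Ptprcap values are uncertain, since all of its exon bases lie under Coro1b or Rps6kb2 and 24.5% of its 50-base stretches are shared with Coro1b. Counts per gene do not separate the splice forms of CD45, nor the CD45.1 allele of the converted T cells from that of the dendritic cells.

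**Figure D2:**
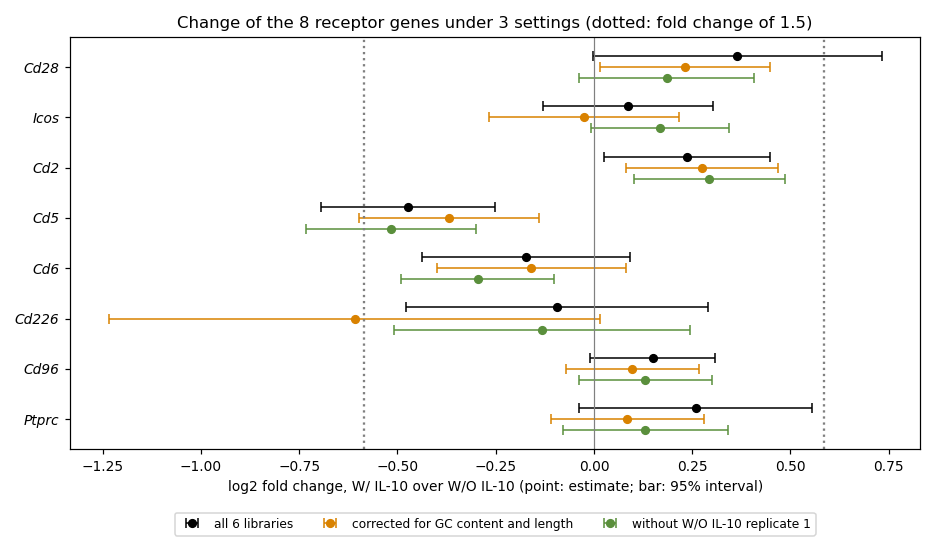
Log2 fold change (horizontal axis, W/ IL-10 over W/O IL-10) of the 8 receptor genes with 95% intervals from edgeR, with all 6 libraries, after correction for GC content and length, and without W/O IL-10 replicate 1. Cd5 is below 0 and Cd2 above 0 with their whole intervals under all 3. The estimates of Cd28 and Ptprc move toward 0 under the last 2, and Cd226 goes from -0.09 to -0.61 under the correction. The whole interval of Cd28 is above 0 only after the correction (0.01 to 0.45, adjusted p = 0.282, edgeR). That of Cd6 is below 0 only without W/O IL-10 replicate 1 (-0.49 to -0.10, adjusted p = 0.106, edgeR).

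Several of these values rest on W/O IL-10 replicate 1, and some in part on W/ IL-10 replicate 1. In that library genes of low GC content were lower than in the other W/O IL-10 libraries, by a median log2 difference of -0.88 over the 140 tested genes at or under 36% GC and -0.39 for the 1868 between 36 and 42% GC. Above 48% GC the medians were 0.07 to 0.10. W/ IL-10 replicate 1 leaned the other way, with medians of 0.33 and 0.22 above the mean of all 6 libraries in the 2 lowest GC ranges and -0.12 above 60% GC, and it was the highest library for Cd28 and Ptprc. Over all tested genes the median log2 fold change went from 0.38 at or under 36% GC and 0.19 at 36 to 42% to -0.12 above 60%. Without W/ IL-10 replicate 1 the log2 fold change was 0.27 for Cd28 and 0.22 for Ptprc (adjusted p = 0.635 and 0.639, edgeR). Ptprc, with 39.4% GC, differed there by -0.39, close to the median of its range, and Cd28, with 41.2% GC, by -0.58. Cd226, with 35.0% GC, differed by only -0.08, and the correction, a curve fitted over all genes, moved its log2 fold change to -0.61 (95% interval -1.23 to 0.02, adjusted p = 0.338, edgeR). Icos, with 43.0% GC, and Cd6, with 47.6%, departed in opposite directions, by 0.26 and -0.37, where the median was -0.05. Cd5, with 56.8% GC, differed by -0.10, where the median was 0.07. The median log2 fold change of all tested genes in its range, 54 to 60% GC, was -0.07. Under the correction the log2 fold change of Cd5 went from -0.47 to -0.37 (adjusted p = 0.0913, edgeR).

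**Figure D3:**
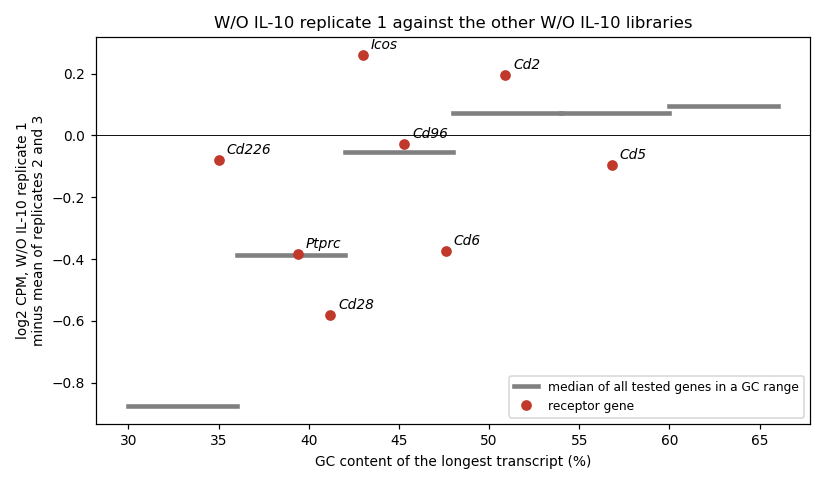
Log2 CPM of W/O IL-10 replicate 1 minus the mean of W/O IL-10 replicates 2 and 3 (vertical axis) against the GC content of the longest transcript (horizontal axis), for the 8 receptor genes (points) and as the median of all tested genes in each GC range (grey lines, the outermost ranges being open-ended). Ptprc lies on the median of its range, while Cd226 lies far above and Cd6 and Icos lie off theirs on opposite sides.

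In levels per kb of exon length, the 8 genes spanned from 2.52 CPM per kb for Cd226 to 137 CPM per kb for Ptprc W/O IL-10, and from 2.37 to 164 CPM per kb W/ IL-10. Ptprc was followed by Cd96, with 92.6 ± 3.69 CPM per kb without IL-10 and 103 ± 2.37 CPM per kb with it (SD, n = 3), then Cd2, Icos and Cd28, at means between 45.6 and 76.7 CPM per kb, and then Cd5 and Cd6, at 8.85 to 12.6 CPM per kb. Among neighbours in that order, the libraries of Cd2 and Icos overlapped W/O IL-10, those of Icos and Cd28 in both groups, and those of Cd5 and Cd6 W/ IL-10. W/O IL-10, every Cd5 library (11.5 to 14.4 CPM per kb) was above every Cd6 library (8.33 to 11.01 CPM per kb). The order depends on the length that is used. By the longest protein-coding transcript Ptprc stayed first and Cd226 last, but Cd2 came before Cd96, Cd28 before Icos and Cd6 before Cd5. Ptprc, Cd96, Cd2, Icos and Cd28 had a level per kb above that of at least 93.8% of all tested genes, Cd5 above 68.1%, Cd6 above 64.5% and Cd226 above 35.3%.

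**Figure D4:**
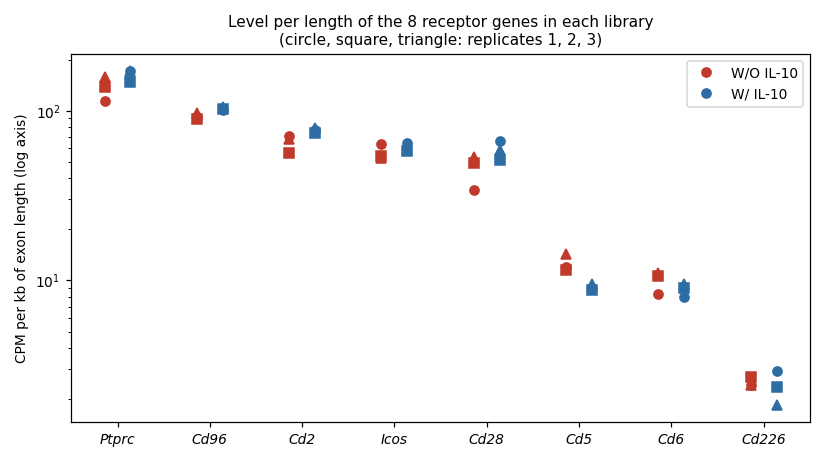
Level of the 8 receptor genes in each library in CPM per kb of exon length (logarithmic vertical axis), ordered by their mean over the 6 libraries. Ptprc is highest and Cd226 lowest in every library, and the Cd5 and Cd6 libraries overlap W/ IL-10 but not W/O IL-10.

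The ligand genes of these receptors ranged on average from 0.283 CPM for Nectin2 to 150.5 CPM for Cd48. Of 9 ligand genes 8 were tested and 1 was called, Cd72 (adjusted p = 0.0147, edgeR), downregulated, against 0.677% of all tested genes called lower. Cd72 encodes a B cell protein that has been described as a ligand of CD5, and had 34.2, 35.4 and 35.5 CPM in W/O IL-10 replicates 1, 2 and 3, against 20.8, 24.8 and 20.4 CPM in W/ IL-10 replicates 1, 2 and 3, without overlap (log2 fold change -0.67). Its adjusted p was 0.0684 without W/O IL-10 replicate 2, and 0.0800 and 0.110 without W/ IL-10 replicates 1 and 3 (edgeR). Under the GC and length correction its log2 fold change was -0.58, just short of 1.5-fold, and it was not called. The part of B cells in its fall was not tested, and 41.6% of its exon bases lie under Tesk1 on the opposite strand, whose reads cannot be told apart if strand was not used in counting.

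Cd80 and Cd86, the genes of the ligands of CD28, had 3.07 to 5.71 CPM on average, and Icosl, the ligand of ICOS, 17.2 ± 2.08 and 14.7 ± 1.01 CPM (SD, n = 3). None of the 3 passed (adjusted p = 0.398, 0.852 and 0.441, edgeR). Alcam, the ligand of CD6, had 73.4 to 97.6 CPM W/O IL-10, against 104 to 116 CPM W/ IL-10, without overlap (log2 fold change 0.35, adjusted p = 0.172, edgeR). Neither Pvr (log2 fold change 0.23, adjusted p = 0.386) nor Nectin1, with 9 to 26 counts per library (log2 fold change -0.99, adjusted p = 0.253, edgeR), passed. Nectin2 had 2 to 11 counts per library and was not tested.

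Of 19 other receptors of the same families 18 were in the table and 16 were tested. Called were 2, Ctla4 and Pdcd1, both higher, against 0.778% of all tested genes called higher. The median log2 fold change of the 16 was 0.07. Pdcd1, which encodes the inhibitory receptor PD-1, rose from 57.5 ± 4.43 to 87.5 ± 2.27 CPM (SD, n = 3). Its log2 fold change was 0.61, with an adjusted p = 0.00846 in edgeR. Its adjusted p was 0.0556 without W/O IL-10 replicate 2 and 0.0704 without W/ IL-10 replicate 3, and without W/O IL-10 replicate 1 its fold change was just under 1.5 (log2 fold change 0.58). The fold change of Pdcd1 with all libraries was 1.52.

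Of 29 signal proteins that work with these receptors, all tested, 0 were called by edgeR, DESeq2 or limma-voom, against 1.45% of all tested genes, and 9 had an unadjusted p under 0.05, against 14.7%. The median log2 fold change was 0.13, against 0.01 over all tested genes. Pstpip1, an adaptor that binds the tail of CD2, had an adjusted p under 0.05 below the fold threshold, with 229, 214 and 216 CPM in W/O IL-10 replicates 1, 2 and 3, against 283, 308 and 296 CPM in W/ IL-10 replicates 1, 2 and 3 (log2 fold change 0.43, adjusted p = 0.0247, edgeR). It was 0.0503 with the replicate number as a block. It was 0.00808, 0.138 and 0.0928 without W/O IL-10 replicates 1, 2 and 3, and 0.0695, 0.0865 and 0.136 without W/ IL-10 replicates 1, 2 and 3. Ubash3a, whose product is recruited by CD5, had 22.4 and 30.7 CPM on average (log2 fold change 0.46, adjusted p = 0.116), and Lck, the kinase on which CD45 acts, 268 and 353 CPM (log2 fold change 0.40, adjusted p = 0.0921, edgeR). Both had groups without overlap. Of the 29, 12 were higher and 3 lower without overlap, against 11.3% and 11.2% of all tested genes.

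**Figure D5:**
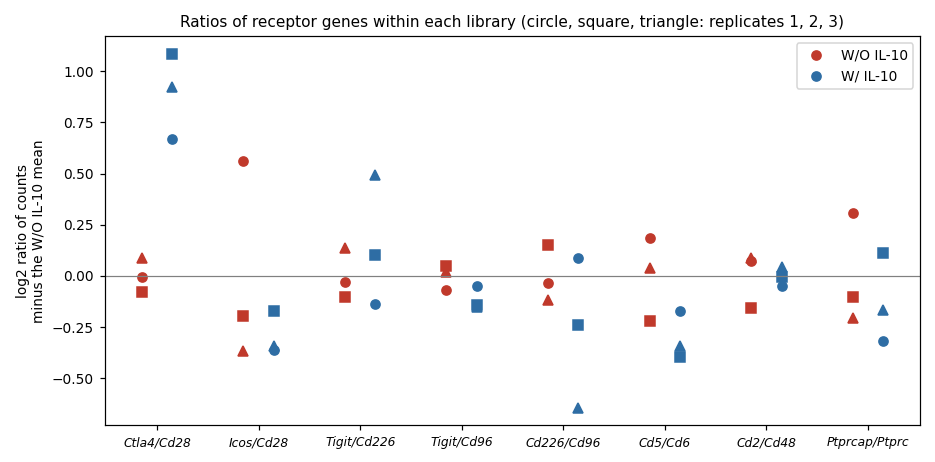
Log2 ratio of the counts of 2 genes within each library (vertical axis, relative to the mean of the W/O IL-10 libraries) for 8 pairs that share a ligand, a family or a complex. The groups are apart for Ctla4 over Cd28, where all W/ IL-10 libraries are higher, and overlap for the other 7 pairs.

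Over the 8 ratios examined, the Benjamini-Hochberg adjusted p of the exact permutation test was at least 0.533, and 3 libraries against 3 cannot reach the threshold. Of the 8 ratios 1, Ctla4 over Cd28, had groups without overlap.

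The genes whose log2 CPM followed Cd28 most closely over the 6 libraries were Phf6, Tnfsf8 and Tbc1d8b (Pearson r of 0.999, 0.996 and 0.995), among 9103 other genes with a mean of at least 10 CPM. As many as 808 of these had an r above 0.9 with Cd28, and the lowest Cd28 value was that of W/O IL-10 replicate 1. For Cd5 the closest were Pou6f1, Hmga1b and Tcf7 (r of 0.997, 0.993 and 0.990), of 158 genes with an r above 0.9. The value of Hmga1b is uncertain, since it has a near-identical copy in Hmga1. Of these 6 genes Pou6f1 had an adjusted p under 0.05 (log2 fold change -0.47, adjusted p = 0.0407, edgeR). These correlations rest on 6 libraries in 2 groups and are given as a description.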

How the data were processed

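The authors deposited 1 table of whole-number counts per Ensembl gene for 6 libraries, not normalized. The submitters' processing notes name HISAT2, HTSeq and GRCm38, whereas the methods name TopHat, Cufflinks and UCSC annotation. Versions and strand settings are not given in the sources used here. Symbols, positions, exon lengths and GC content came from GENCODE release M21 (29332 of 29393 identifiers found). No 2 libraries held identical values.

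TMM factors and the quasi-likelihood test were computed with edgeR 4.0.16 (R 4.3.3) on genes that had 10 or more counts in 3 or more libraries. Genes were called at a fold change of at least 1.5 and an adjusted p under 0.05, the study's thresholds. The log2 fold changes carry no shrinkage, and standard errors were derived from them and the F statistic. Ratios were tested in Python 3.11.15 with scipy 1.17.1. Alternatives were DESeq2 1.42.0, limma-voom (limma 3.58.1), upper-quartile scaling, other filters, the replicate number as a block, a null fold change of 1.5, splines on GC content and length with 5 degrees of freedom, and each library left out. The longest coding transcript as a length was added after seeing the data. The fit was tested on simulated data.

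The receptors and gene lists were chosen with earlier results of these data known. Named are the 8 receptors, their ligands and ratio partners, list genes past both thresholds in any list, and for the largest rise and fall the 3 genes with the highest r (log2 CPM, prior count 2). Cd4, Cd8a, Flt3, Clec9a, Pstpip1, Ubash3a and Lck fall outside this rule and were named after their values were seen. Intervals cover the spread between libraries, and the 3-count floor covers counting error only.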

Additional observations from a re-analysis of the deposited data

How the results depend on the processing

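None of the 8 receptor genes was called under any of the 15 alternatives run. The number with an adjusted p under 0.05, 1 with all libraries (Cd5), was 0 with limma-voom, with a null fold change of 1.5 and after the correction for GC content and length. It was 2 without a filter on low counts (Cd28 and Cd5) and 2 with the correction and the replicate block together (Cd2 and Cd5), and 0 to 1 with each library left out. The genes called over all tested genes, 217 of 14916, became 359 with DESeq2, 15 with the null of 1.5, and 332 with the correction and the block. They became 639 of 29393 genes without a filter, and 35 to 254 with each library left out. Of the 8 ligands, 16 related receptors and 29 signal proteins tested, 3 genes were called with all libraries, against 1.45% of all tested genes. This number was 0 with the null of 1.5, and 0 to 3 with each library left out. The cause of these changes was not tested.

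Icos turned to -0.0252 on the log2 scale after the correction and to -0.012 with the correction and the block. Cd226, between -0.2708 and 0.0605 with each library left out, turned without W/ IL-10 replicate 3. With each library left out, the log2 change of Tigit over Cd226 (0.1505) lay between -0.0194 and 0.2953, that of Cd2 over Cd48 (-0.006) between -0.0849 and 0.0371, and that of Ptprcap over Ptprc (-0.1234) between -0.2418 and 0.0295. The library that turned the first was W/ IL-10 replicate 3, those that turned the next were W/O IL-10 replicates 1 and 3 and W/ IL-10 replicate 1, and the last turned without W/O IL-10 replicate 1. The other 5 ratios kept their direction in every setting run. Another gene length was not run for ratios, where length cancels.

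Same-numbered libraries deviated from their group means with correlations of 0.0524, -0.0573 and 0.1136, and not every library correlated best with its own number. With 3 libraries per group these values do not show that equal numbers mark pairs, and they cannot exclude it. With a replicate block, 1 receptor gene had an adjusted p under 0.05 at any fold change (Cd5, adjusted p = 0.0457, edgeR). Past both thresholds were 0 of the receptor genes and 196 of 14916 tested genes, so that Cd5 was not among the 196. Depth limits Cd226 most among the 8 receptor genes (205 to 321 counts), and among the ligands Nectin2 (2 to 11), Nectin1 (9 to 26), Cd80 (54 to 125) and Cd86 (81 to 175).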
